A study of Rattus norvegicus with 24 samples.

Results

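The dual-specificity phosphatases described here are 7 genes, Dusp1, Dusp2, Dusp4, Dusp5, Dusp6, Dusp10 and Dusp14, measured by 10 probe sets in the supraoptic nucleus of the rat. They were taken as every probe set whose single gene symbol in the platform annotation was one of the 7, out of 14217 genes with a single symbol, and a further 13 Dusp genes on the array were not members. The genes were chosen from fold changes of these same arrays, so their differences between dehydrated and control rats are given as a description, without a p-value. Each array held RNA from the pooled nuclei of 5 Sprague Dawley rats. The groups were 4 arrays of dehydrated females (no water for 72 hours, with free access to food), 4 of control females (normally hydrated, age not given), 5 of dehydrated males (3 days without water, 10 to 12 weeks old) and 5 of control males of that age.

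MAP kinases (ERK, p38 and JNK) are switched on by phosphorylation of a threonine and a tyrosine in the activation loop, and phosphatases of this family switch them off by removing both phosphates. Many of them are transcribed in response to the kinases they inactivate, which makes them negative feedback regulators. The supraoptic nucleus holds the magnocellular neurons that make vasopressin and oxytocin, and water deprivation drives these neurons to fire and to release hormone. Dusp6 acts on ERK in the cytoplasm and Dusp5 on ERK in the nucleus. Dusp1, an immediate early gene, Dusp2 and Dusp4 are nuclear phosphatases with wider substrate ranges, Dusp10 prefers p38 and JNK, and Dusp14 is a small atypical member.

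One more array labelled as dehydrated female was left out. Its Avp and Oxt signals were 50.6 and 26.0, against 3644 to 7666 and 3001 to 6698 on the 18 arrays used, and its summed oligodendrocyte markers were 24470, against 4149 to 13550. Signals are the deposited values, with the trimmed mean of every array near 100. The median signal was 36.1 to 46.5 per array, and precision is limited by how few arrays there were. The design text allows the arrays of a group to be both biological and technical replicates, so the errors and p-values below measure the spread between arrays, which may be technical in part. Each sex was set against its own controls, because sex, extraction, labelling and signal software changed together between the array sets.

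Dusp6 was called higher in dehydrated rats of both sexes, and Dusp2 and Dusp5 in dehydrated males. In females Dusp2 and Dusp5 were also higher, with log2 fold changes of 0.525 and 0.709, but were not called. A probe set is called where limma's adjusted p over 21729 probe sets per array set is under 0.05; for the members, chosen on these values, a call is a label of size against spread and not a test. In females 2 of the 10 member probe sets, both of Dusp6, were called higher, where 1.77% of all probe sets tested were. In males 5 were called higher (Dusp2, Dusp5 and all 3 of Dusp6), where 8.32% of all were. None was called lower, where 1.19% of all were in females and 9.38% in males (limma; none was lower at an unadjusted p under 0.05). The filter on low signals passed 7 of the 10 probe sets, from 5 genes, and the second Dusp1 probe set and those of Dusp4 and Dusp10 did not pass it in either sex. Over the 10 the median log2 fold change was 0.58 in females and 0.47 in males, against -0.03 and -0.04 over all probe sets tested. Because the genes were chosen for these differences, the counts describe the choice and carry no further weight.

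**Figure D1:**
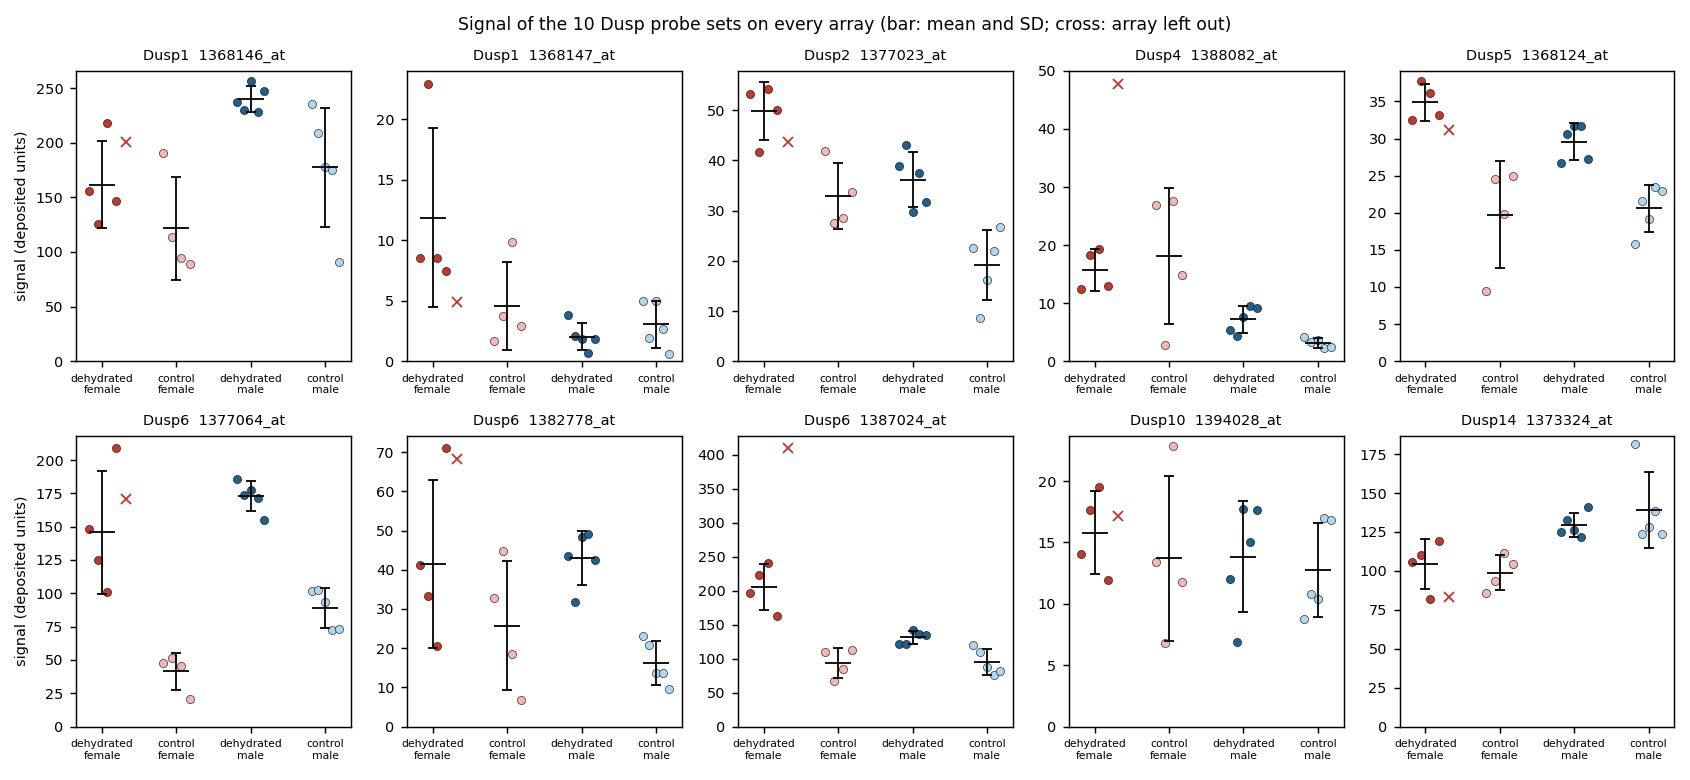
Deposited signal (linear scale) of the 10 member probe sets on every array, with dehydrated left of control within each sex. Points are arrays, bars are the mean with its SD (n = 4 per female group and 5 per male group) and the cross is the array left out. The Dusp6 probe sets 1377064_at and 1387024_at show no overlap between dehydrated and control arrays in either sex.

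Dusp6 carried the largest differences. Its probe set 1377064_at had signals of 148, 125, 101 and 209 in dehydrated females, against 47.8, 51.6, 45.4 and 21.0 in control females. In males it had 186, 174, 178, 172 and 155 under dehydration, against 102, 103, 93.2, 72.1 and 73.5 in controls. Every dehydrated array lay above every control array in both sexes, which held for 5.31% of all probe sets in females and 6.82% in males. The means were 146 ± 46.1 in dehydrated and 41.4 ± 13.9 in control females (SD, n = 4 each), and the log2 fold change was 1.68 ± 0.26 (SE). They were 173 ± 11.4 in dehydrated and 88.7 ± 14.98 in control males (SD, n = 5 each), and the log2 fold change was 0.93 ± 0.11. These were the 21st and the 91st largest rises among all probe sets of their array set. With the left-out array included, the female log2 fold changes were 1.73 ± 0.26 for 1377064_at, 0.79 ± 0.43 for 1382778_at and 1.30 ± 0.26 for 1387024_at, and none was called (limma; 1 of 21729 probe sets was called in that fit).

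The Dusp6 probe set 1387024_at gave the same direction with smaller differences. Its signals were 197, 222, 240 and 163 in dehydrated females, against 109, 66.3, 84.2 and 113 in control females. In males they were 122, 122, 141, 136 and 135 under dehydration, against 120, 110, 87.2, 75.8 and 82.1 in controls. Neither sex showed an overlap, although the lowest dehydrated male array (121.6) lay just above the highest control male array (119.6). The log2 fold change was 1.10 ± 0.18 in females and 0.46 ± 0.11 in males.

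The third Dusp6 probe set, 1382778_at, was dimmer and separated the groups only in males. Its signals were 41.1, 33.2, 20.5 and 70.9 in dehydrated females, against 32.7, 44.8, 18.6 and 6.90 in control females. These overlapped, and the log2 fold change of 0.64 ± 0.41 was not called. In males it had 43.6, 31.8, 48.3, 49.0 and 42.4 under dehydration, against 23.2, 20.7, 13.7, 13.6 and 9.70 in controls. No control male array reached the lowest dehydrated one, and the log2 fold change was 1.15 ± 0.18.

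From array to array, a single pair of the 3 Dusp6 probe sets varied together over all arrays. With each group centred on its own mean, 1377064_at and 1382778_at correlated at r = 0.905 and rho = 0.825 over the 18 arrays (permutation p within groups 0.00015 and 0.00019, adjusted over 3 pairs 0.00045 and 0.00057). The r was 0.808 without the 2 arrays farthest from the median, 0.949 over the 8 female arrays and 0.686 over the 10 male arrays. The pair 1377064_at and 1387024_at gave r = -0.367 and rho = -0.199 (permutation p 0.29 and 0.53, adjusted 0.35 and 0.80), and r = -0.074 without the 2 farthest arrays. That pooled value joined -0.769 in females and 0.742 in males. The last pair, 1382778_at and 1387024_at, gave r = -0.327 and rho = -0.069 (permutation p 0.35 and 0.82, adjusted 0.35 and 0.82), 0.075 without the 2 farthest arrays, -0.762 in females and 0.849 in males. The within-group r of 1387024_at with each of the other Dusp6 probe sets was thus below 0 in females and above 0 in males, a difference in sign that was not tested.

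**Figure D2:**
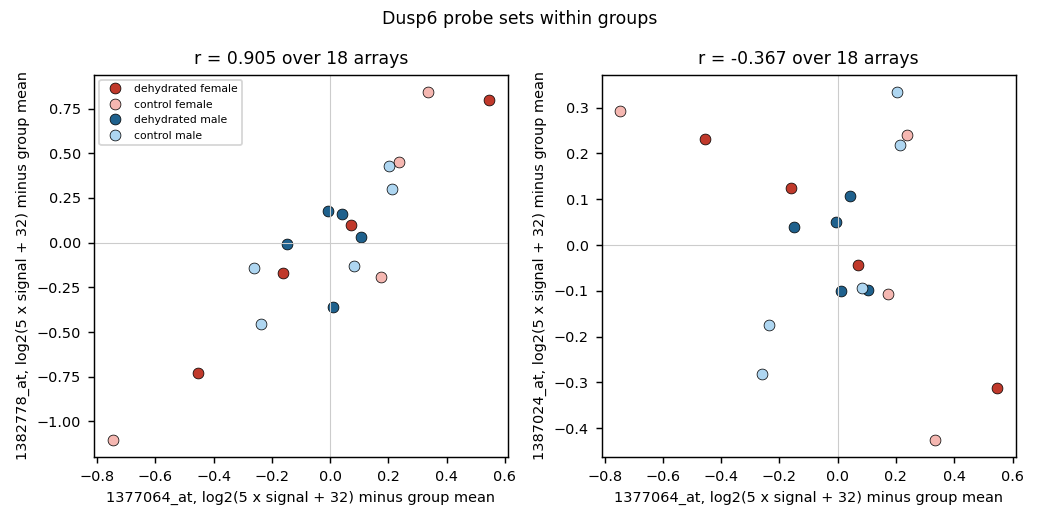
Group-centred log2 signal of the Dusp6 probe set 1377064_at (x axis) against 1382778_at and 1387024_at (y axes, log2 units) on the 18 arrays. The first pair rises together (r = 0.905) and the other does not (r = -0.367).

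Dusp5, the nuclear ERK phosphatase, was higher on every dehydrated array than on any control array in both sexes. Its probe set 1368124_at had signals of 32.4, 37.7, 36.2 and 33.1 in dehydrated females, against 9.48, 24.6, 19.8 and 25.0 in control females. The log2 fold change in females was 0.71 ± 0.24, and it was not called. In males it had 26.7, 30.6, 31.7, 31.7 and 27.2 under dehydration, against 15.8, 21.6, 19.1, 23.5 and 22.9 in controls. The male log2 fold change, 0.42 ± 0.14, was called, but the call was lost on leaving out any single array other than control male replicate 5 (fold changes 0.35 to 0.46).

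Dusp2 followed the same pattern in males. The probe set 1377023_at had 38.9, 43.1, 29.7, 37.4 and 31.8 in dehydrated males, against 22.5, 8.60, 16.1, 22.0 and 26.7 in control males. No overlap was seen, and the log2 fold change was 0.78 ± 0.20. In dehydrated females the signals were 53.2, 41.7, 54.3 and 50.1, against 27.4 to 41.9 in control females, where the highest control array passed the lowest dehydrated one. The female log2 fold change of 0.53 ± 0.17 was not called.

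Dusp1 was not called in either sex. Its probe set 1368146_at had 156, 126, 218 and 147 in dehydrated females, against 190, 114, 94.1 and 88.6 in control females. In males it had 237, 230, 257, 228 and 247 under dehydration, against 235, 209, 178, 175 and 90.6 in controls. The dehydrated male pools lay close together while the control pools were spread widely, with SDs of 12.0 and 54.5. The log2 fold change was 0.43 ± 0.23 in females and 0.48 ± 0.18 in males, and the male difference was called in 4 of 19 alternative fits, among them those without control male replicate 1 (0.60) and without control male replicate 5 (0.27). The second Dusp1 probe set, 1368147_at, lay at or under 22.9 on all 18 arrays, below or near the filter.

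Dusp4 and Dusp10 were dim and were not tested, and Dusp14 was not called. The Dusp4 probe set 1388082_at had 5.30, 4.30, 7.70, 9.50 and 9.20 in dehydrated males, against 4.10, 3.30, 3.70, 2.20 and 2.50 in control males. These did not overlap but lay at the bottom of the signal range, and in females the signals overlapped (12.4 to 19.4 in dehydrated and 2.80 to 27.5 in control females). Dusp10 lay between 12.0 and 19.5 in dehydrated and 6.83 and 22.9 in control females, and between 6.90 and 17.7 in dehydrated and 8.80 and 17 in control males. The Dusp14 probe set 1373324_at was well measured, at 81.7 to 119 in dehydrated and 86.1 to 111 in control females. It had 122 to 141 in dehydrated and 123 to 182 in control males, and its log2 fold change was 0.07 ± 0.14 in females and -0.09 ± 0.10 in males.

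**Figure D3:**
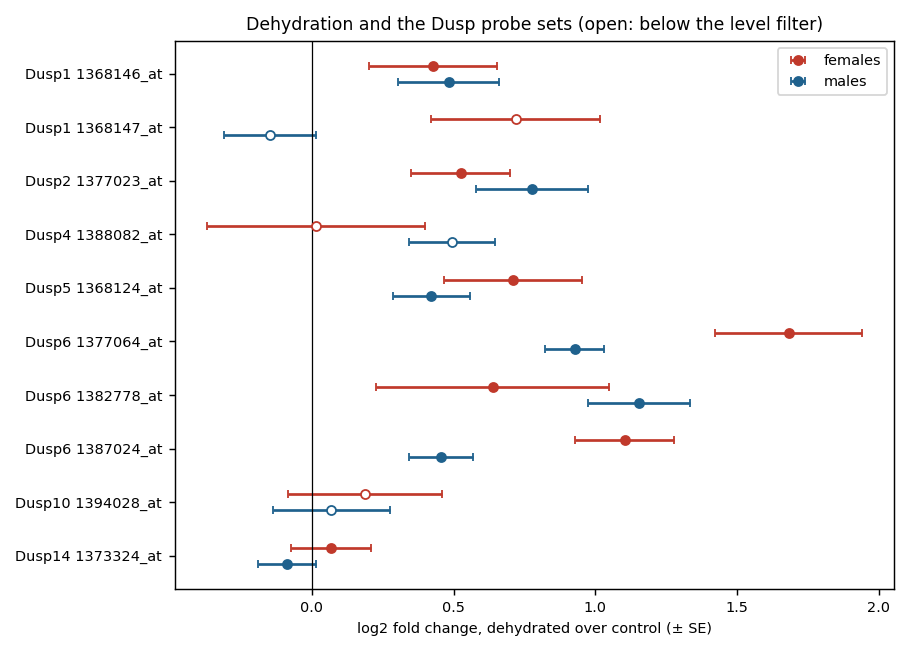
Log2 fold change, dehydrated over control, of the 10 member probe sets with its SE, for females (4 against 4 arrays) and males (5 against 5). Open symbols failed the filter on low signals; the largest value is that of Dusp6 1377064_at in females, 1.68.

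Whether the response differed between the array sets was examined as an interaction over all 18 arrays. The members were chosen from the fold changes that make up this contrast. For them the counts, intervals and p-values below are therefore a description and not an independent test. None of the 7 member probe sets tested was called (limma, adjusted p under 0.05), where 0.0322% of all probe sets were, and 2 of the 7 passed an unadjusted p under 0.05, as did 10% of all probe sets. The female effect minus the male effect was 0.75 ± 0.28 for Dusp6 1377064_at (95% interval 0.18 to 1.33, adjusted p = 0.341) and 0.65 ± 0.21 for 1387024_at (0.21 to 1.09, adjusted p = 0.277). For 1382778_at it was -0.52 ± 0.45, with an interval of -1.45 to 0.42. The other members had differences of -0.25 to 0.29 with intervals that included 0, the widest that of Dusp1 (-0.70 to 0.59). Sex, extraction, labelling and software cannot be told apart in this contrast.

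The windows around the transcription starts of Dusp6, Dusp5 and Dusp2 are shown because these genes were called higher, and that of Dusp1, which was not called, for the cyclic AMP response element in it. They come from RefSeq on the build GRCr8 and run from 250 bases before to 50 after the annotated start, 5′ to 3′. The Dusp6 window is chr7:35979354-35979653, that of Dusp5 chr1:262543524-262543823, that of Dusp2 chr3:135009386-135009685 and that of Dusp1 chr10:17184603-17184902, all on the plus strand. Capitals mark the cyclic AMP response element TGACGTCA, its core TGACGT on either strand, and the CArG box that serum response factor binds.
Dusp6: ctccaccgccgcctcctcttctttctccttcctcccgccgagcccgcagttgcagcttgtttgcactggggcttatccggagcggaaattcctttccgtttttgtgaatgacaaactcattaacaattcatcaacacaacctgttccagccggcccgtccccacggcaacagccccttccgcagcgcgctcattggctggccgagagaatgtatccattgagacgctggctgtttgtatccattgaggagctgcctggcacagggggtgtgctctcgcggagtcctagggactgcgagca
Dusp5: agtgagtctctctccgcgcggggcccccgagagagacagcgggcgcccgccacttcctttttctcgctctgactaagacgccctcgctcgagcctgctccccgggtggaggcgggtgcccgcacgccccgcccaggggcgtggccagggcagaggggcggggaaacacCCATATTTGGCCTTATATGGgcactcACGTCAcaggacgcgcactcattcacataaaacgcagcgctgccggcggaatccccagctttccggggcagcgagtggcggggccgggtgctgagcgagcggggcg
Dusp2: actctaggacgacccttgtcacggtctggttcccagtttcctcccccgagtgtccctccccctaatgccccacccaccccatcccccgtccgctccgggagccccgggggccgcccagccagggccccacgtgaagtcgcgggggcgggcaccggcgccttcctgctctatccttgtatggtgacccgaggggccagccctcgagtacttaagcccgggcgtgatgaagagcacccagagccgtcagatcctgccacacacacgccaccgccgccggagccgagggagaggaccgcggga
Dusp1: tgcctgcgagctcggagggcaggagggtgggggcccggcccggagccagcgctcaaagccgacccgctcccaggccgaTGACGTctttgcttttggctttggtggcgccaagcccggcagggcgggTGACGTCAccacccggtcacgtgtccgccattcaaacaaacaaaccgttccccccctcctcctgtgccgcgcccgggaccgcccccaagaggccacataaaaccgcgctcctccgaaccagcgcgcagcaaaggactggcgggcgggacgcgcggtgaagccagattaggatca

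The motifs were searched on both strands and were picked after the values were known. The Dusp1 window held the full element 124 bases before the start, as did 1.83% of 33469 promoter windows, and held the core at 172, 124 and 122, where the last 2 overlap inside the full element. The Dusp5 window held the core 56 bases before the start, as did 7.94% of windows, and CArG boxes that begin 82 and 72 bases before it, found in 1.64% of windows. The EGR site GCGNGGGCG (in 4.98% of windows) was in the Dusp2 and Dusp5 windows, and the E box CACGTG (6.42%) in those of Dusp2 and Dusp1. The string CCGGAA, a form of the ETS site (15%), was in the Dusp5 window and 1 Dusp14 window, and the AP-1 site TGANTCA (7.33%) in another Dusp14 window. The Dusp6 and Dusp10 windows held none of the 7 motifs in the exact form searched. Shorter or variant forms were not counted, among them the GGAA within CCGGAA, which the Dusp6 window does hold. Windows were found for 6 of the 7 genes, Dusp4 being the exception, and a match is a string of letters, not a measured binding site.

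The probe sets most like Dusp6 1377064_at over the 18 arrays, with each array set centred on its controls, were those of Alk (r = 0.952), a receptor tyrosine kinase, Prr13 (0.948), Pbdc1 (0.939), Fkbp1a (0.931), a prolyl isomerase, and Cited2 (0.931), a CBP/p300-binding regulator. They came from 14773 probe sets compared, and these values include the difference between dehydrated and control that all of them share. With each group centred on its own mean, the values were 0.709 for Alk, 0.752 for Prr13, 0.584 for Pbdc1, 0.598 for Fkbp1a and 0.718 for Cited2. Alk had a log2 fold change of 1.495 ± 0.126 in females and 0.92 ± 0.07 in males. With centring on controls the other member probe sets were less like it, from 0.753 for Dusp6 1387024_at to 0.158 for Dusp14, but with centring on groups Dusp6 1382778_at (0.905) was above those 5.

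Other brakes on ERK signalling that are not phosphatases of this family were examined as a list of 12 genes, of which 9 were tested in each sex. Sprouty and Spred proteins act upstream of ERK, and Ptpn5 and Ptprr are tyrosine phosphatases that act on it. In males 6 of the 9 rose and none fell, and in females 2 rose and none fell, with median log2 fold changes of 0.48 and 0.35. That is 66.7% called in males and 22.2% in females, where 17.7% and 2.96% of all probe sets were. No member of the list was lower at an unadjusted p under 0.05 (limma) in either sex, and 7 were higher in males and 4 in females. Spry2, a Sprouty gene, had 262 ± 19.6 in dehydrated and 125 ± 50.04 in control females (SD, n = 4 each) and rose by 1.10 ± 0.21 (limma adjusted p = 0.0167). In males it had 221 ± 12.4 under dehydration and 121 ± 29.9 in controls (SD, n = 5 each), a rise of 0.87 ± 0.14 (limma adjusted p = 0.00061). Spred3 rose by 0.58 ± 0.14 in females (limma adjusted p = 0.0482) and 0.58 ± 0.10 in males (0.00123), and Spry3 rose by 0.61 ± 0.09 in males (0.000302). The other male rises, Spry4, Ptpn5 and Ptprr, were named after their values were seen and lay between 0.40 and 0.55.

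**Figure D4:**
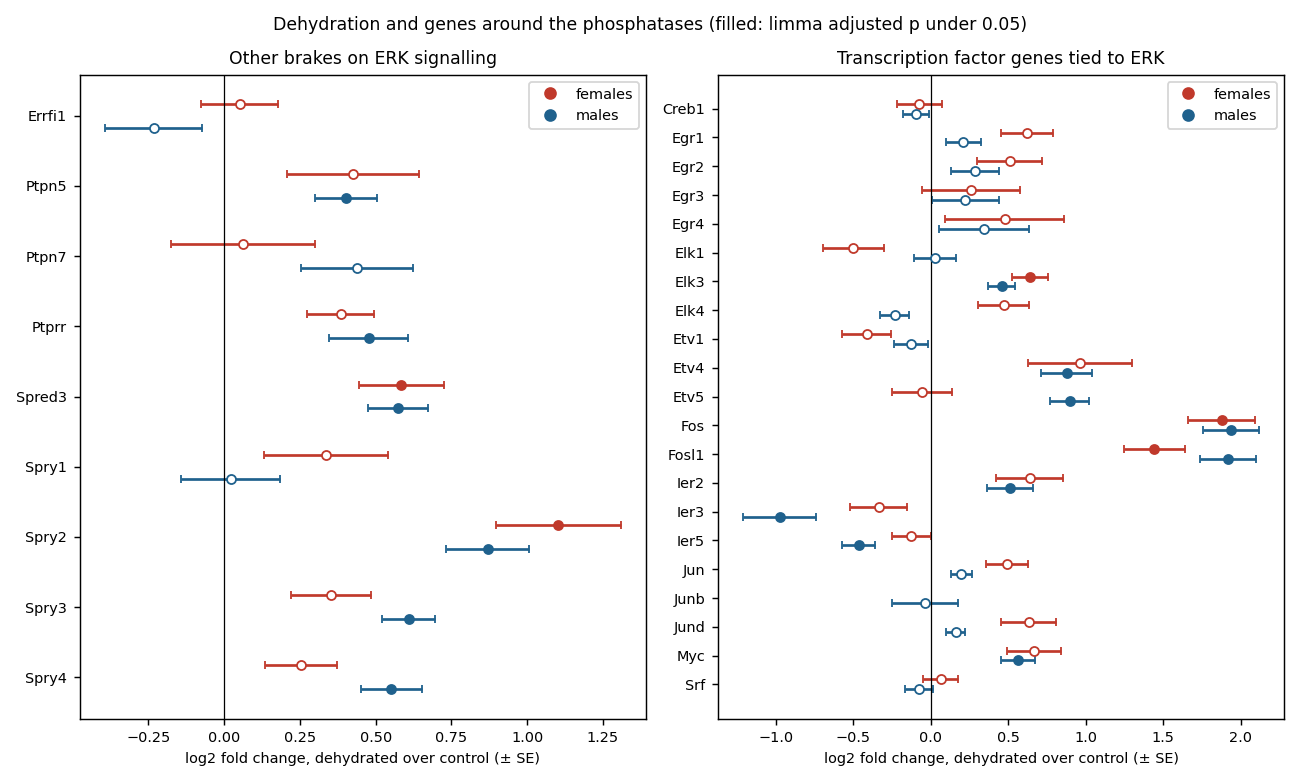
Log2 fold change, dehydrated over control, with its SE for other brakes on ERK signalling and for transcription factor genes tied to ERK, in females and males. Filled symbols passed a limma adjusted p under 0.05; Fos and Fosl1 show the largest rises in both sexes.

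Transcription factor genes that ERK is known to induce or to act on were among the genes that rose, 3 of 20 tested in females and 7 of 21 in males. With the 2 male falls counted, 15% were called in females and 42.9% in males, where 2.96% and 17.7% of all probe sets were. Fos had 293 ± 89.8 in dehydrated and 74.6 ± 20.9 in control females (SD, n = 4 each), and 305 ± 19.3 in dehydrated and 79.6 ± 36.4 in control males (SD, n = 5 each). Its log2 fold changes were 1.88 ± 0.22 (limma adjusted p = 0.0012) and 1.94 ± 0.18 (7.38e-06). Fosl1 rose by 1.44 ± 0.20 in females (limma adjusted p = 0.00372) and 1.92 ± 0.18 in males (8.75e-06), and the last female rise was Elk3, 0.64 ± 0.12. Elk3, named for males after the values were seen, also rose there, by 0.458 ± 0.087 (limma adjusted p = 0.00254). In males Etv4 (0.88 ± 0.17) and Etv5 (0.90 ± 0.13), ETS factors named after their values were seen, rose too. The brightest Etv5 probe set differed between the sexes: the one used in males had 54.6 ± 17.7 in dehydrated and 22.6 ± 4.57 in control females (SD, n = 4 each), while the one used in females had 37.3 ± 8.72 in dehydrated and 31.8 ± 6.29 in control males (SD, n = 5 each). Ier3 fell by 0.98 ± 0.24 (limma adjusted p = 0.0108) and Ier5 fell by 0.47 ± 0.11 (0.00839) in males, immediate early genes both, and no gene of the list fell in females, where 2 were lower at an unadjusted p under 0.05.

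Kinase genes were called in some lists and not in others. Of the MAP kinase genes tested none was called in 7 in females (limma, with 1 lower and none higher at an unadjusted p under 0.05), and 2 of 8 rose in males (25%, where 17.7% of all probe sets were called). Those were Mapk7, the gene of ERK5, at 0.92 ± 0.18 (limma adjusted p = 0.00299) and Mapk11, a p38 gene, at 0.43 ± 0.09 (0.00406). Of 5 MAP kinase kinase genes, 1 rose and 1 fell in females, and 2 rose and 1 fell in males. That is 40% and 60% of a short list, where 2.96% and 17.7% of all probe sets were called. Map2k3 rose in females (0.57 ± 0.13, limma adjusted p = 0.0425) and males (0.27 ± 0.09, 0.0437), and Map2k1, which activates ERK, rose in males (0.19 ± 0.05, limma adjusted p = 0.0236). Map2k6 fell in both: it had 32.1 ± 5.44 in dehydrated and 59.9 ± 13.3 in control females (SD, n = 4 each), and 40.6 ± 10.8 in dehydrated and 62.1 ± 10.8 in control males (SD, n = 5 each). The Map2k6 call depended on the normalization. It was lost with quantile normalization and with median centring in both sexes, and in females also with no filter and without the trend. Map2k3 and Map2k6 activate p38. No kinase gene a step higher was called in either sex (limma; 1 was lower and none higher at an unadjusted p under 0.05 in each).

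Among other dual-specificity phosphatase genes, neither Dusp7 nor Dusp8 was called in either sex (limma; neither at an unadjusted p under 0.05). Of the atypical phosphatases none of 13 was called in females (limma, with 2 lower and none higher at an unadjusted p under 0.05), while in males 2 of 14 rose and 1 fell. That is 21.4% called in males, near the 17.7% of all probe sets. Dusp22, which acts on JNK signalling, had 327 ± 18.1 in dehydrated and 229 ± 9.87 in control males (SD, n = 5 each), a rise of 0.50 ± 0.06 (limma adjusted p = 9.1e-05). Dusp26 rose by 0.23 ± 0.07 (limma adjusted p = 0.0322) and Ssh3, a cofilin phosphatase, fell by 0.32 ± 0.10 (0.0408).

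Of the genes of growth factor inputs to these kinases, 19 were tested in each sex. In females 1 rose and none fell (5.26% called, where 2.96% of all probe sets were). At an unadjusted p under 0.05 (limma) 2 were higher and 3 lower there. In males 3 rose and 1 fell (21.1% called, where 17.7% of all were). The median log2 fold change of the list was -0.14 in females and -0.055 in males. Fgf9 rose in both sexes. It had 319 ± 55.5 in dehydrated and 139 ± 23.9 in control females (SD, n = 4 each), and rose by 1.16 ± 0.15 (limma adjusted p = 0.00226). In males it had 262 ± 23.4 under dehydration and 126 ± 10.4 in controls (SD, n = 5 each), and rose by 1.02 ± 0.08 (1.61e-06). Vegfa rose by 0.61 ± 0.08 in males (limma adjusted p = 0.000147) and Fgfr2 fell by 0.29 ± 0.09 (0.0287). Of 13 genes of docking substrates and scaffolds none was called in females (limma; 3 lower and none higher at an unadjusted p under 0.05), and in males Mapk8ip1, a JNK scaffold, rose by 0.29 ± 0.04 while the kinase genes Rps6ka5 and Rps6ka4 fell by 0.52 ± 0.13 and 0.32 ± 0.10. Called genes made up 23.1% of that list in males. Over all pathway lists, 8 of 97 genes tested were called in females (8.25%, where 2.96% of all probe sets were) and 30 of 101 in males (29.7%, where 17.7% of all were). The lists were chosen with earlier results of these data known. A listed gene also counts once, by its brightest probe set, while the shares of all count every probe set kept. These shares therefore do not test for enrichment. Leaving out dehydrated female replicate 1 or control female replicate 3 left 3 calls in females, dehydrated female replicate 2 or control female replicate 1 left 4, and control female replicate 4 left 5. The female calls of Fos, Fosl1 and Fgf9 were kept in all 8 fits that left out an array, those of Spry2 and Elk3 in 5, and those of Spred3, Map2k3 and Map2k6 in 2. Spry2 was lost without dehydrated female replicate 1 or 2 or control female replicate 3. In males the calls of Map2k3 were kept in 2 of 10 such fits, Ssh3 in 3, Dusp26 and Fgfr2 in 4, Rps6ka4 in 5, Map2k6 in 6, Map2k1 in 7 and Ptprr in 9, and those of the other genes named here as changed in males in all 10. With quantile normalization the male calls of Map2k6, Ssh3, Rps6ka4, Dusp26 and Map2k1 were lost. Median centring lost those of Map2k6, Ssh3, Rps6ka4 and Fgfr2 in males, and those of Map2k3 and Map2k6 in females.

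Some cell type markers were called higher or lower with dehydration in these pools. Over all probe sets tested, 1.77% were called higher and 1.19% lower in females, and 8.32% higher and 9.38% lower in males. The marker lists are short, and their counts were not tested against these shares. Magnocellular markers were higher in part, with 3 of 7 tested called in each sex and sums of 13090 to 21210 in dehydrated and 10440 to 11530 in control females, and 14350 to 17120 in dehydrated and 12110 to 14830 in control males. No further marker of that list passed an unadjusted p under 0.05 (limma). The Avp signal, a large part of the sum, overlapped in both sexes. In males it was 4397 to 5928 in dehydrated and 4337 to 5616 in control arrays. In females it was 3834 to 7666 in dehydrated and 3644 to 4254 in control arrays, with 7666 on dehydrated female replicate 2. Oligodendrocyte markers were lower in females (5 of 10; sums of 4149 to 7121 in dehydrated and 7425 to 10530 in control) and 0 of 10 were called in males (limma; 1 at an unadjusted p under 0.05). Mural and meningeal markers were lower for 11 of 14 in males (4826 to 9553 in dehydrated and 8219 to 13720 in control) and 3 of 14 in females (4212 to 7089 in dehydrated and 6054 to 8176 in control). Microglial markers were lower for 5 of 9 in males (909.7 to 1167 in dehydrated and 1078 to 1570 in control), and 0 of 10 were called in females (limma; 2 at an unadjusted p under 0.05; 821.8 to 1006 in dehydrated and 1052 to 1302 in control). Blood markers were lower for 2 of 3 in males (770.3 to 1108 in dehydrated and 1607 to 2158 in control) and 1 of 3 in females (761.4 to 1720 in dehydrated and 1329 to 2485 in control). Astrocyte markers were lower for 3 of 9 in males and 1 of 9 in females, and ependymal markers for 2 of 4 in males. Of 9 endothelial markers none was called in either sex (limma, with 0 in females and 2 in males at an unadjusted p under 0.05). None of 2 lymphocyte markers was called in females and none of 3 in males (limma, with 0 and 1 at an unadjusted p under 0.05). Markers of other neurons were higher for 1 of 5 in males, and none of 5 was called in females (limma, with 4 at an unadjusted p under 0.05). No marker was at 0 on all arrays. The part of these shifts in the phosphatase differences was not tested. In pooled tissue, fewer cells of a type and less RNA per cell cannot be told apart.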

How the data were processed

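RNA of pooled rat supraoptic nuclei was measured on Affymetrix arrays. Per probe set, the deposited table gives an intensity, made by the authors with GCOS 1.2 for males and MAS5 for females, per the submitters' processing notes; settings are not given in the sources used here. Of 24 samples, 5 lactating columns held no values and were not analysed here, and 1 female array was left out. Intensities were multiplied so that each array's 2% trimmed mean was 500, 32 was added and log2 taken. Of 31099 probe sets, the 57 controls were left out. Of the remaining 31042, the 21729 above the 30th percentile of mean log2 signal were kept in each fit. limma 3.58.1 in R 4.3.3 (lmFit, eBayes with trend, Benjamini-Hochberg over all kept, threshold 0.05) gave fold changes and tests, and the code was tested on simulated data. A gene in a list is represented by its brightest probe set with a single symbol. Named were all members, up to 2 rising and 2 falling genes per list and sex past the threshold, and the 5 probe sets most like Dusp6 1377064_at; others are marked. The members and lists were chosen with earlier results of these data known, and the correlations between Dusp6 probe sets (100000 permutations within groups) were added after seeing the data. Figures were drawn in matplotlib 3.10.9 (Python 3.11.15).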

Additional observations from a re-analysis of the deposited data

Results flagged for a closer look

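In 2 of the 40 groups of member signals examined, 1 array lay apart from the rest by Dixon's criterion, which chance meets in about 1 in 20 groups. The dim Dusp1 probe set 1368147_at had 22.9 on dehydrated female replicate 2, where the other 3 dehydrated female arrays had 7.49 to 8.56. Dusp14 1373324_at had 181.7 on control male replicate 1, where the other 4 control male arrays had 123 to 138.

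The dehydrated female array that was left out exceeded the highest control female array for 7 member probe sets. Dusp6 had 170.7 there on 1377064_at, against 21.0 to 51.6 in control females, 68.2 on 1382778_at, against 6.90 to 44.8, and 410.2 on 1387024_at, against 66.3 to 113. Dusp1 1368146_at had 200.7, against 88.6 to 190, and Dusp2 had 43.6, against 27.4 to 41.9. Dusp5 had 31.1, against 9.48 to 25.0, and Dusp4 had 47.8, against 2.80 to 27.5. That array had Avp and Oxt signals far under those of all others, and their part in these values was not tested.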

How the results depend on the processing

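No paired analysis was possible because the labels of the dehydrated arrays carry no replicate numbers. The 439 recomputed member values were log2 fold changes within each sex and differences between the array sets. No fold change of a called probe set changed sign, while the uncalled Dusp14 in males, at -0.09, was 0.01 without control male replicate 1. The differences, none of which was called, were not examined for a change of sign. In all, 2 moved by more than the spread between arrays: Dusp6 1382778_at in males was 1.45 with an offset of 1 and 0.81 with an offset of 100, against 1.15. Member probe sets called in females numbered 2, and 0 with all 9 female arrays (limma; 4 at an unadjusted p under 0.05), and 2 to 2 when each array was left out. In males they numbered 5, and 2 with a filter at the 50th percentile, which tested 4, and 4 to 6 when each array was left out. Dusp5 in males was also lost with no filter and in 1 fit with all 4 groups. No member was called in the difference between sets under any alternative.

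Probe sets called in females numbered 643, and were 290 without the trend, 1709 with array weights, 1 with all 9 arrays, 2322 in 1 fit with all 4 groups and 210 to 886 when each array was left out. Those called in males numbered 3846, and were 2270 in 1 fit with all 4 groups and 2839 to 4149 when each array was left out. For the difference, 7 became 20 with quantile normalization, 12 with median centring, 11 with an offset of 100, 2 with no filter, 114 with array weights, 0 with all 9 arrays (limma; 1707 at an unadjusted p under 0.05) and 1 to 55 when each array was left out. Pathway genes called in females numbered 8, and were 5 without the trend, 16 with array weights, 0 with all 9 arrays (limma; 16 at an unadjusted p under 0.05), 22 in 1 fit and 3 to 12 when each array was left out. In males 30 became 18 in 1 fit and 23 to 32 when each array was left out. Median centring moved the share of calls that were higher to 75.3% in females, against 59.7%, and 71.3% in males, against 47.0%. The causes of these changes were not tested.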
